A study of Papio anubis with 25 samples.

Results

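The genes described here are the 4 classical hormones of the pancreatic islet and 3 proteins stored with them, measured in 5 tissues of the olive baboon. They were taken by symbol from the deposited abundance table: INS (insulin), GCG (glucagon), SST (somatostatin), PPY (pancreatic polypeptide), IAPP (islet amyloid polypeptide), CHGA (chromogranin A) and CHGB (chromogranin B), 7 of 21287 genes, each present in 1 protein-coding row. The study took pancreas, liver and 3 salivary glands (parotid, submandibular, sublingual) from each of 5 animals (Papio anubis), which gave 1 library per tissue and animal and 25 in all. Baboon 5 was the only male, no treatment or genotype is given in the labels, and ages are not given in the sources used here. RNA came from 3 flash-frozen sections of 30 µm per tissue, so each value describes all cells of those sections, and was read in pairs of 150 bp. Values are TPM, each gene's length-corrected share of the transcripts of its library, which allow levels of different genes to be set side by side.

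Islets are small clusters of endocrine cells scattered through a pancreas that consists mostly of acinar cells, which make digestive enzymes. Beta cells release insulin, which lowers blood glucose, together with IAPP. Alpha cells release glucagon, which raises blood glucose by acting on the liver, delta cells release somatostatin, which restrains both, and PP cells release pancreatic polypeptide. Chromogranins are acidic proteins of the dense-core granules in which neuroendocrine cells store their peptides, and they are also made in nerves and the adrenal medulla.

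The tissue labels were checked against marker genes. The 8 acinar markers together held 158178 to 195631 TPM in pancreas and 208 to 3736 TPM in the 20 other libraries. The 4 hepatocyte markers held 35022 to 62616 TPM in liver and 117 to 954 TPM elsewhere. The 4 salivary markers did not mark every gland library. They held 1401 to 3665 TPM in pancreas and 847 to 3941 TPM in liver. In parotid, submandibular and sublingual gland of baboon 2 they held 1839, 1907 and 1309 TPM, and 4256 to 280249 TPM in the other gland libraries. The gland libraries were less uniform. AQP5, the water channel of salivary acinar cells, was at most 10 TPM in 5 of the 15 gland libraries (2.25 TPM in parotid and 5.40 TPM in submandibular gland of baboon 2, 3.64 TPM in parotid of baboon 5, and 2.61 and 3.78 TPM in sublingual gland of baboons 2 and 4) and 40.5 to 226 TPM in the other gland libraries. Results are given with these 5 libraries, and calls of the members that changed without them, and calls of other named islet genes that were lost without them, are given as well. Skeletal muscle markers reached 46189 TPM in the sublingual library of baboon 2 and oral mucosa markers 74568 TPM in that of baboon 1.

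Insulin was by far the most abundant of the 7 transcripts. In pancreas, INS stood at 5248, 562, 4704, 732 and 13411 TPM in baboons 1 to 5 (4931 ± 5215, SD, n = 5). Baboons 2 and 4 were far below the other animals, and the highest library exceeded the lowest 23.9-fold. INS ranked 19th to 154th among the 21287 genes of the pancreas libraries and made up 0.0562% to 1.34% of all transcripts there.

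Outside the pancreas INS was detected in every library. It measured 54.6, 343, 17.6, 49.9 and 85.4 TPM in liver and 40.8, 15.9, 501, 39.2 and 51.0 TPM in sublingual gland. It measured 0.655, 23.6, 38.3, 10.7 and 43.1 TPM in parotid and 29.7, 30.2, 11.9, 21.1 and 24.9 TPM in submandibular gland. The liver of baboon 2 and the sublingual gland of baboon 3 stood above all other non-pancreatic libraries. Pancreas and the other tissues did not overlap, although only narrowly, with the lowest pancreas library at 562 TPM and the highest other library at 501 TPM.

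IAPP, the peptide co-released with insulin, followed at a lower level. Its pancreas values were 390, 12.4, 160, 13.2 and 284 TPM (172 ± 166, SD, n = 5), with baboons 2 and 4 again low. Liver held 3.77, 10.8, 0, 2.22 and 3.15 TPM and sublingual gland 4.14, 1.24, 15.4, 1.31 and 1.29 TPM. Parotid ranged from 0 to 2.28 TPM and submandibular gland from 0.342 to 3.62 TPM. The liver of baboon 2 and the sublingual gland of baboon 3, highest for INS, were highest for IAPP as well, and the latter exceeded the pancreas of baboons 2 and 4.

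GCG, the glucagon precursor of alpha cells, varied most between animals. Its pancreas values were 280, 0.752, 6.17, 0.959 and 74.3 TPM (72.4 ± 120, SD, n = 5), a 372-fold range. The other 20 libraries lay between 0 and 2.49 TPM, with a median of 0.407 TPM. The pancreases of baboons 1, 3 and 5 stood above all of them, while those of baboons 2 and 4 lay within their range.

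SST, the inhibitory hormone of delta cells, stood at 34.2, 0, 2.16, 0.234 and 33.1 TPM in pancreas (14.0 ± 18.0, SD, n = 5). The pancreases of baboons 1 and 5 exceeded every other library, the highest of which was the sublingual gland of baboon 3 at 3.33 TPM. In 7 of the 20 other libraries SST was above the pancreas of the same animal.

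PPY, the product of PP cells, was the member that least marked the pancreas. It measured 5.71, 0, 1.11, 0.327 and 5.34 TPM there (2.50 ± 2.80, SD, n = 5). In submandibular gland it measured 0.512, 15.1, 0.759, 0.111 and 0.756 TPM, and in parotid 0.121, 3.77, 0, 0 and 0 TPM. The submandibular gland of baboon 2, one of the libraries with little AQP5, held more PPY than any pancreas. PPY was listed at 0 in 7 of the 20 libraries outside the pancreas.

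The 2 granins were low everywhere. CHGA stood at 1.86, 0.159, 0.395, 0.0875 and 8.18 TPM in pancreas and CHGB at 3.48, 0.165, 0.911, 0.199 and 1.33 TPM. Outside the pancreas CHGA did not exceed 0.616 TPM and CHGB did not exceed 0.536 TPM, and they were listed at 0 in 7 and 6 of the 20 libraries. For both, the pancreases of baboons 1 and 5 were above every other tissue, and for CHGB that of baboon 3 as well. In bulk tissue, fewer cells of a type and less RNA per cell cannot be told apart, which holds for every level above.

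**Figure D1:**
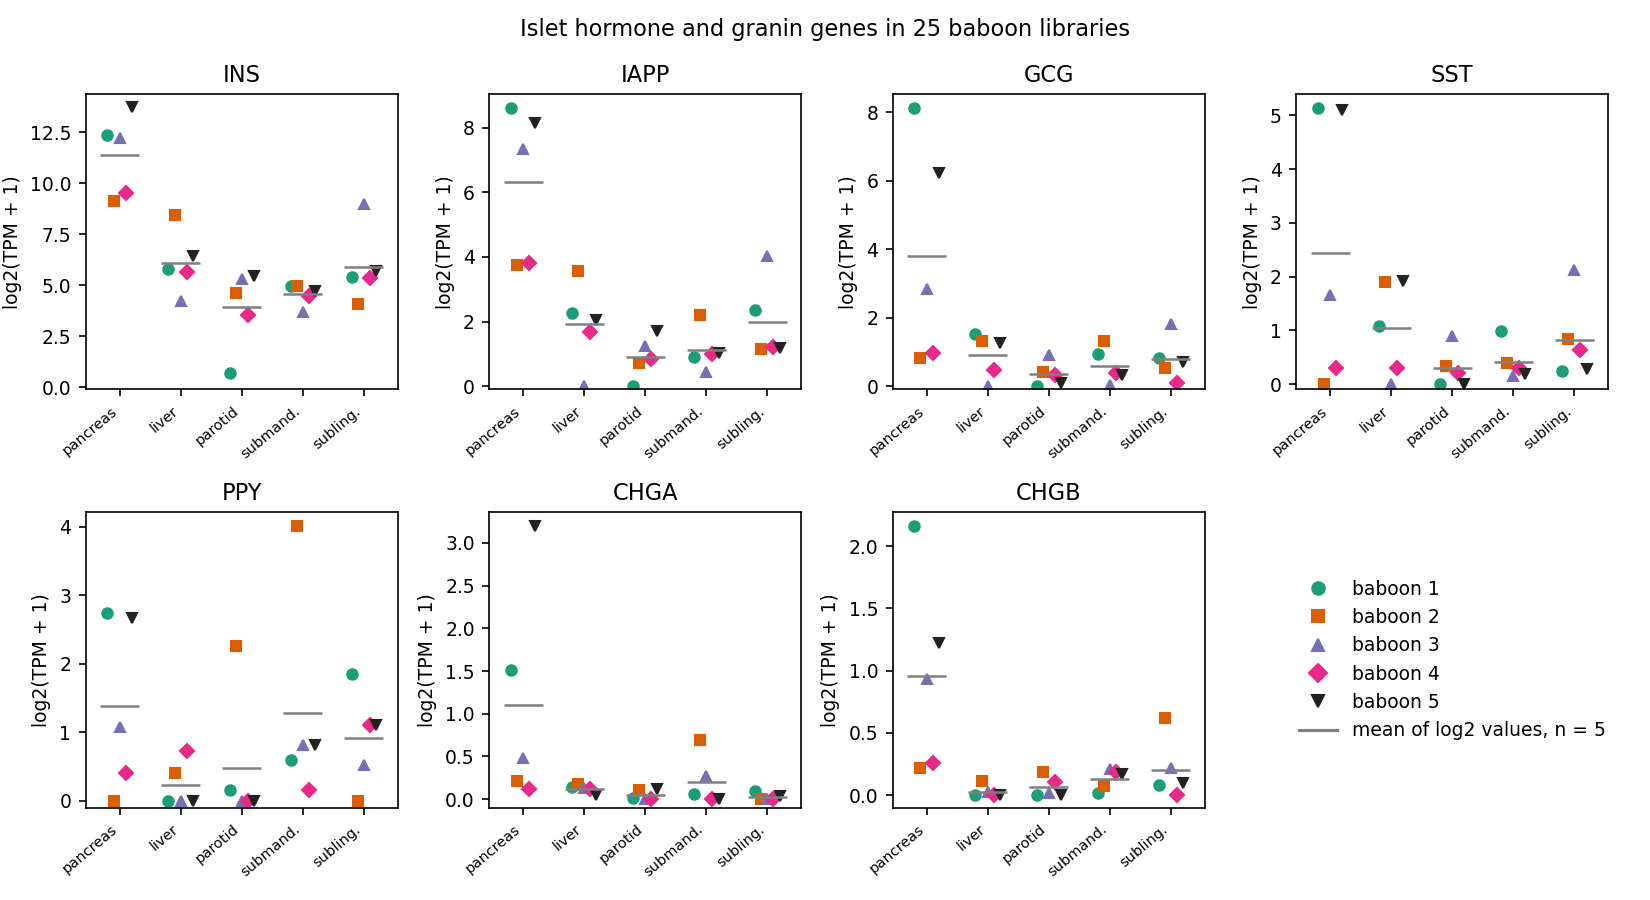
Level of each of the 7 genes in 25 libraries, as log2(TPM + 1) on the vertical axis, by tissue on the horizontal axis; symbols mark the 5 animals and grey lines the mean of the log2 values. Only for INS do all 5 pancreas libraries lie above all others; baboons 2 and 4 are the lowest pancreas libraries for all 7 genes, and the highest PPY value is in the submandibular gland of baboon 2.

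The study's design sets pancreas against the salivary glands and the liver within animals. INS, IAPP and GCG were called higher in pancreas in each of the 4 comparisons by limma (adjusted p under 0.05 over the 14991 genes tested, with log2 levels at least 1 apart), and SST, PPY, CHGA and CHGB in none. The 4 comparisons share the 5 pancreas libraries. That is 3 of 7 members each time, beside 2.4% of all genes tested called higher in pancreas against parotid, 2.81% against submandibular gland, 2.49% against sublingual gland and 2.86% against liver. In the other direction 0 members were called, beside 1.41%, 1.27%, 6.97% and 14.6% of all genes tested. The members' median log2 fold change was 2.15 against parotid, 2.03 against submandibular gland, 1.62 against sublingual gland and 1.40 against liver, where the medians over all genes tested were -0.45, -0.17, -0.63 and -0.44. All 7 passed the filter on low values (1 TPM or more on average in some tissue), but CHGA and CHGB passed it through the pancreas alone.

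The log2 fold change of INS was 7.45 (SE 0.95, limma adjusted p = 8.41e-06) against parotid and 6.83 (SE 0.95, adjusted p = 2.81e-05) against submandibular gland. It was 5.49 (adjusted p = 0.000528) against sublingual gland and 5.28 (adjusted p = 0.00019) against liver, and INS was higher in pancreas in 5 of 5 animals each time. For IAPP the limma log2 fold changes were 5.43, 5.22, 4.34 and 4.42 in the same order (SE 0.82, adjusted p between 9.17e-05 and 0.00137), again in 5 of 5 animals. For GCG they were 3.45 (SE 0.84, limma adjusted p = 0.0155), 3.20 (adjusted p = 0.0265), 3.01 (adjusted p = 0.0276) and 2.88 (adjusted p = 0.0162). GCG was higher in pancreas in 5 of 5 animals against parotid and sublingual gland and in 4 of 5 against submandibular gland and liver.

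The members that were not called differed in how far they fell short. SST had limma log2 fold changes of 2.15, 2.03, 1.62 and 1.40 (SE 0.72) against parotid, submandibular gland, sublingual gland and liver, with adjusted p between 0.109 and 0.203. CHGA had 1.06, 0.90, 1.08 and 0.98 (SE 0.36), with limma adjusted p between 0.0607 and 0.253. CHGB had 0.90, 0.83, 0.76 and 0.93 (SE 0.27); against liver its limma adjusted p was 0.0157 but the change was below the fold threshold. PPY had 0.89, 0.10, 0.46 and 1.15 (SE 0.62), with limma adjusted p between 0.227 and 0.983. All these values are on the log2(TPM + 1) scale, which understates the change of genes near or below 1 TPM.

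The calls of INS and IAPP held under all 15 alternatives tried. Those of GCG did not: without baboon 1 its limma adjusted p was 0.101 to 0.189 over the 4 comparisons, without baboon 5 it was 0.107 to 0.225, and without baboon 3 the calls against submandibular gland, sublingual gland and liver were lost (0.0537 to 0.105). Its calls against submandibular and sublingual gland were also lost when only the tissues compared were fitted (limma adjusted p = 0.0758 and 0.0801) and without the filter on low values (0.0669 and 0.0563). Without the 5 gland libraries low in AQP5, the GCG call against parotid was lost (limma adjusted p = 0.0591), while PPY against liver (log2 fold change 1.15, adjusted p = 0.0301) and CHGA against sublingual gland (1.28, adjusted p = 0.0314) were called. Without baboon 2, whose pancreas was lowest for all members but CHGA, 6 members were called against parotid, 6 against sublingual gland, 7 against liver and 3 against submandibular gland.

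**Figure D2:**
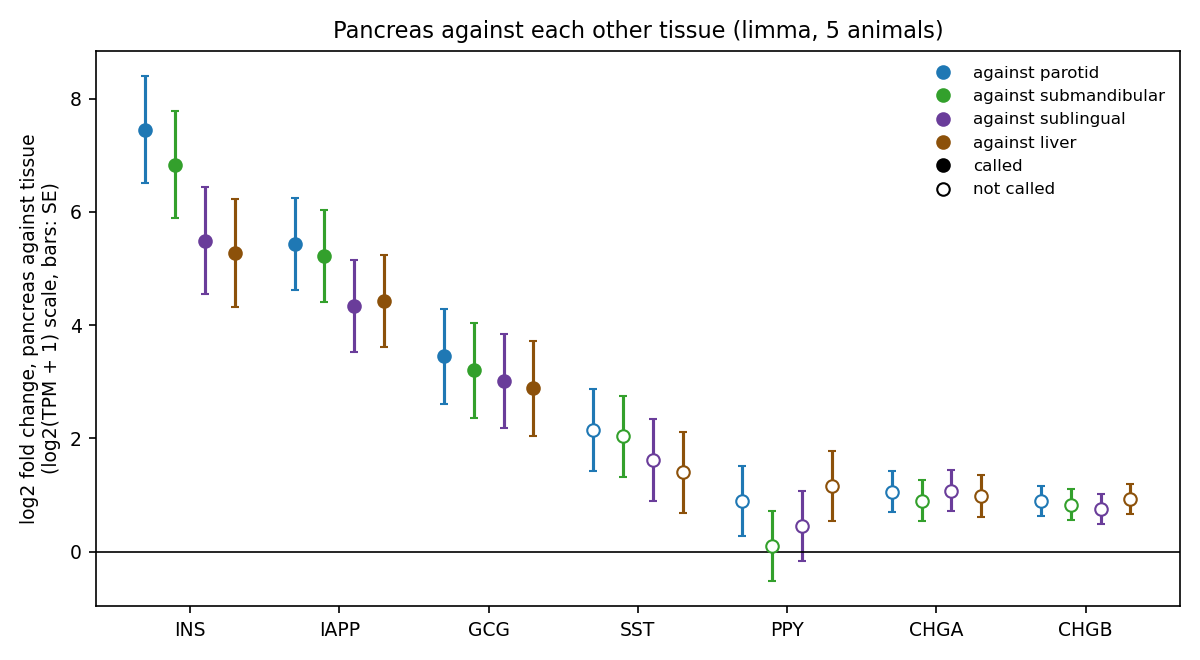
Log2 fold change of pancreas against each other tissue (vertical axis, log2(TPM + 1) scale) for the 7 genes (horizontal axis), from limma over 5 animals; bars are standard errors, and filled points are called while open points are not. The filled points are those of INS, IAPP and GCG, and the lowest point is PPY against submandibular gland at 0.10.

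Among the 6 tissue pairs without pancreas, 0 of 42 tests of the members were called by limma (adjusted p between 0.145 and 1), and 1 had an unadjusted p under 0.05. That was INS, lower in parotid than in liver, with a log2 fold change of -2.18 (SE 0.95, unadjusted p = 0.0312, limma adjusted p = 0.145) and lower in parotid in 4 of 5 animals. Over all genes tested, 13.8% were called in either direction for parotid against liver, 16.5% for submandibular gland against liver and 15.4% for sublingual gland against liver, but 0% for parotid against submandibular gland, 0.113% for parotid against sublingual gland and 0.0667% for submandibular against sublingual gland. When only parotid and liver were fitted, INS was called lower in parotid. The means of INS outside the pancreas were 130 TPM in sublingual gland, 110 TPM in liver, 23.6 TPM in submandibular gland and 23.3 TPM in parotid.

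Within the pancreas the order of the abundant members was the same in every animal. INS exceeded IAPP, IAPP exceeded GCG and GCG exceeded SST in 5 of 5 libraries. The mean log2 ratio within a library was 5.05 (SD 0.79, n = 5) for INS over IAPP, 2.54 for IAPP over GCG (GCG over IAPP -2.54, SD 1.47, n = 5) and 1.36 (SD 0.94, n = 5) for GCG over SST, on the log2(TPM + 1) scale. Of the 21 pairs of members, 15 had the same order in all 5 animals. Each of those had a two-sided exact sign-flip p of 0.0625, the smallest that 5 animals allow, and 0.0875 after adjustment over 21 pairs. SST, PPY, CHGA and CHGB were not separated from each other: in the 6 pairs among them the order differed or tied in at least 1 animal, with exact p between 0.1875 and 1.

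Insulin dominated the hormone pool in each pancreas. It made up 94.3%, 99.9%, 99.8%, 99.8% and 99.2% of the summed TPM of INS, GCG, SST and PPY in baboons 1 to 5. For 1000 INS transcripts there were 53.3, 1.34, 1.31, 1.31 and 5.54 of GCG. Baboon 1 thus differed from the other animals in having much more glucagon transcript relative to insulin. The ratio was nearly the same in baboons 2, 3 and 4, whose INS levels differed widely. In baboons 2 and 4, however, GCG was only 0.752 and 0.959 TPM, within the 0 to 2.49 TPM of the other tissues. Their ratios therefore rest on values near the floor. IAPP stood at 74.3, 22.1, 33.9, 18.0 and 21.2 per 1000 INS, with baboon 1 again the highest.

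The members varied between pancreases far more than most genes. The SD of log2(TPM + 1) over the 5 pancreas libraries was 3.26 for GCG, 2.52 for SST, 2.37 for IAPP, 1.97 for INS, 1.29 for CHGA, 1.27 for PPY and 0.80 for CHGB. The median SD of the 10505 genes that averaged 1 TPM or more in pancreas was 0.33, and 6 of them had a larger SD than GCG and 46 a larger SD than INS. This is a description of 5 libraries, and genes are not independent replicates. The log2(TPM + 1) scale compresses the spread of genes near or below 1 TPM. The highest pancreas exceeded the lowest 21.1-fold for CHGB and 93.5-fold for CHGA, beside 23.9-fold for INS.

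**Figure D3:**
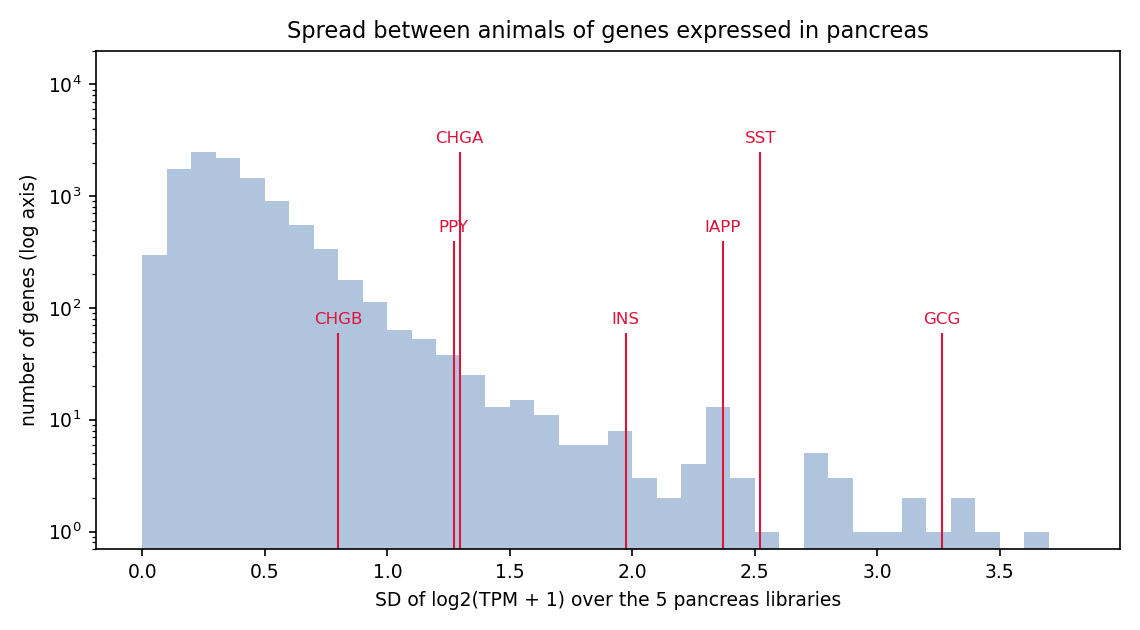
Number of genes (vertical axis, log scale) by the SD of log2(TPM + 1) over the 5 pancreas libraries (horizontal axis), for the 10505 genes that averaged 1 TPM or more there; red lines mark the 7 members. GCG at 3.26, SST at 2.52, IAPP at 2.37 and INS at 1.97 lie in the far right tail, and CHGB at 0.80 lies closest to the bulk of genes. The scale compresses the spread of genes near or below 1 TPM, such as CHGA and CHGB.

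The animals fell in nearly the same order for all members. From high to low, GCG, SST, PPY, IAPP and CHGB all ran baboon 1, 5, 3, 4, 2, an order shared by 32 of the 10505 genes (0.305%). INS ran 5, 1, 3, 4, 2 and CHGA 5, 1, 3, 2, 4. Among 65 other listed genes, the order of GCG was shared by PTPRN, a granule membrane protein, UCN3, a peptide of mature beta cells, TTR, a thyroid hormone carrier abundant in alpha cells, and NKX6-1, a beta cell transcription factor. The order of INS was shared by PCSK1N, an inhibitor of the prohormone convertase PC1, and ABCC8, the sulphonylurea receptor.

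Single acinar genes had SDs between animals of 0.23 (CELA3B) to 0.96 (GP2, with 0.89 for CPB1) on the log2(TPM + 1) scale. CHGB had 0.80 and GCG 3.26. Because that scale compresses genes near or below 1 TPM, the SD of CHGB cannot be ranked against those of acinar genes. The sum of the 8 acinar markers was 185351, 158178, 166700, 194833 and 195631 TPM in baboons 1 to 5, so that baboon 4, low in all hormones, was among the highest. The 4 hormones together came to 30.0, 3.56, 28.3, 3.77 and 69.1 per 1000 acinar marker transcripts. Nerve markers summed to 10.2 to 13.0 TPM and duct markers to 27.8 to 58.2 TPM in pancreas. Other marker sums did vary. In the pancreases of baboons 1 to 5, oral mucosa markers stood at 1.69, 417, 234, 5.08 and 79.5 TPM. Skeletal muscle markers stood at 191, 237, 12.9, 167 and 126 TPM in the same order. The part of these markers in the spread of the members was not tested.

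**Figure D4:**
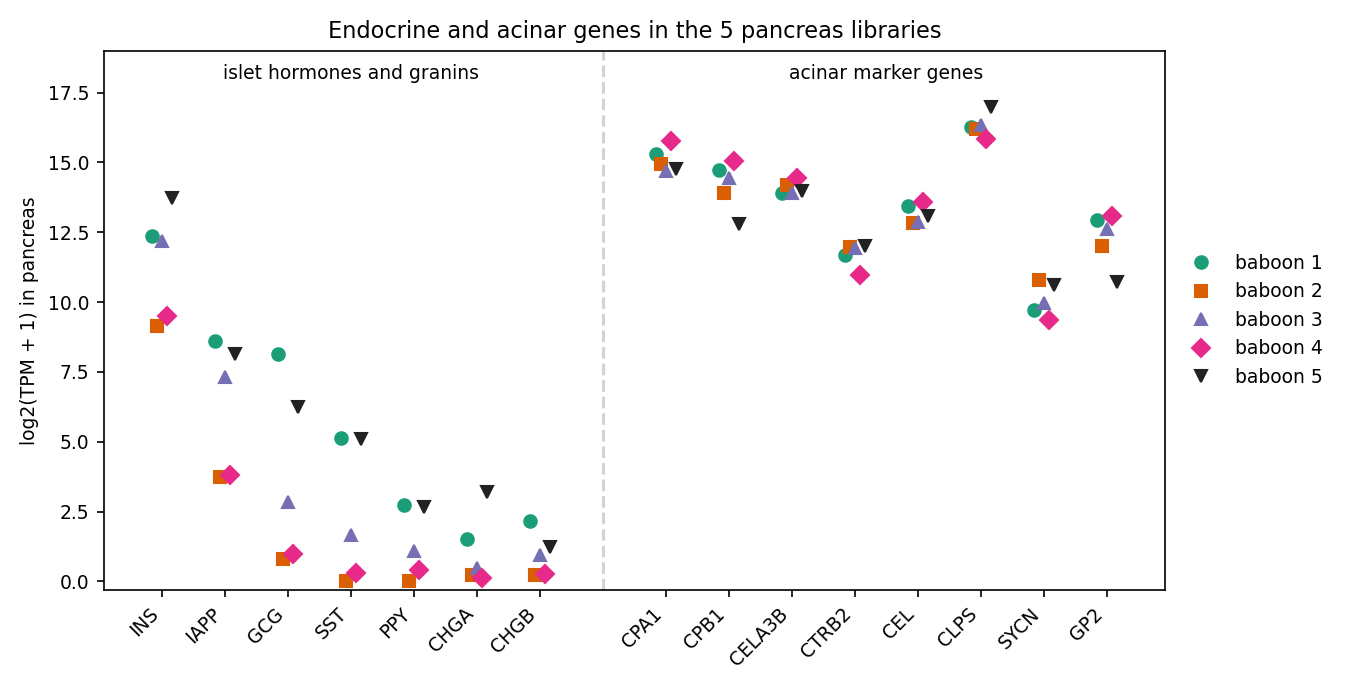
Level in pancreas, as log2(TPM + 1) on the vertical axis, of the 7 members (left) and 8 acinar marker genes (right); symbols mark the 5 animals. INS runs from 562 to 13411 TPM, an SD of 1.97 on this axis; the single acinar genes have SDs of 0.23 to 0.96.

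Outside the pancreas, INS stood at low percentages of its pancreas mean, and so did the acinar enzymes. Over the 20 libraries INS was at a median of 0.695% of its pancreas mean (range 0.0133% to 10.2%) and the median acinar marker at 0.677% (range 0.116% to 1.92%). INS lay above the percentage of every acinar marker in 6 of the 20 libraries and below that of every one in 7. The parotid of baboon 1 was lowest on both measures. The sublingual gland of baboon 3 held INS at 10.2%, IAPP at 8.96% and acinar markers at 1.75% of their pancreas means. The liver of baboon 2 held INS at 6.95%, IAPP at 6.28% and acinar markers at 0.727%. In that animal, whose pancreas was lowest in INS, the liver reached 61.0% of the pancreas for INS and 86.8% for IAPP, and 0.753% for the median acinar marker. Without these 2 libraries INS did not exceed 1.73% and its median was 0.607%, beside 0.633% for acinar markers.

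Other islet genes that are low in pancreas itself differed outside it. UCN3 was listed at 0 in 18 of the 20 libraries, the liver of baboon 2 and the sublingual gland of baboon 3 included. SLC30A8, the zinc transporter of insulin granules, was listed at 0 in both, and was 1.12 TPM at most in pancreas. PDX1, the transcription factor that activates INS, was listed at 0 in the liver of baboon 2 and at 0.227 TPM in the sublingual gland of baboon 3, beside 4.58 to 9.78 TPM in pancreas. PTPRN, by contrast, stood at 2.88 TPM in the sublingual gland of baboon 3 and at 2.90 TPM in the submandibular gland of baboon 2, beside 0.236 to 2.77 TPM in pancreas. The depth is unknown, so how well such low values can be told from 0 is not known. A gene at a few TPM in pancreas would be near 0 at most percentages seen for INS. The 2 libraries named here, however, held the highest INS, at 6.95% (liver of baboon 2) and 10.2% (sublingual gland of baboon 3) of its pancreas mean. The liver of baboon 2 held INS at 61.0% of the pancreas of the same animal. Whether the values of 0 set these genes apart from INS was not tested. The part of acinar or other pancreatic RNA in the INS values outside the pancreas was not tested.

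**Figure D5:**
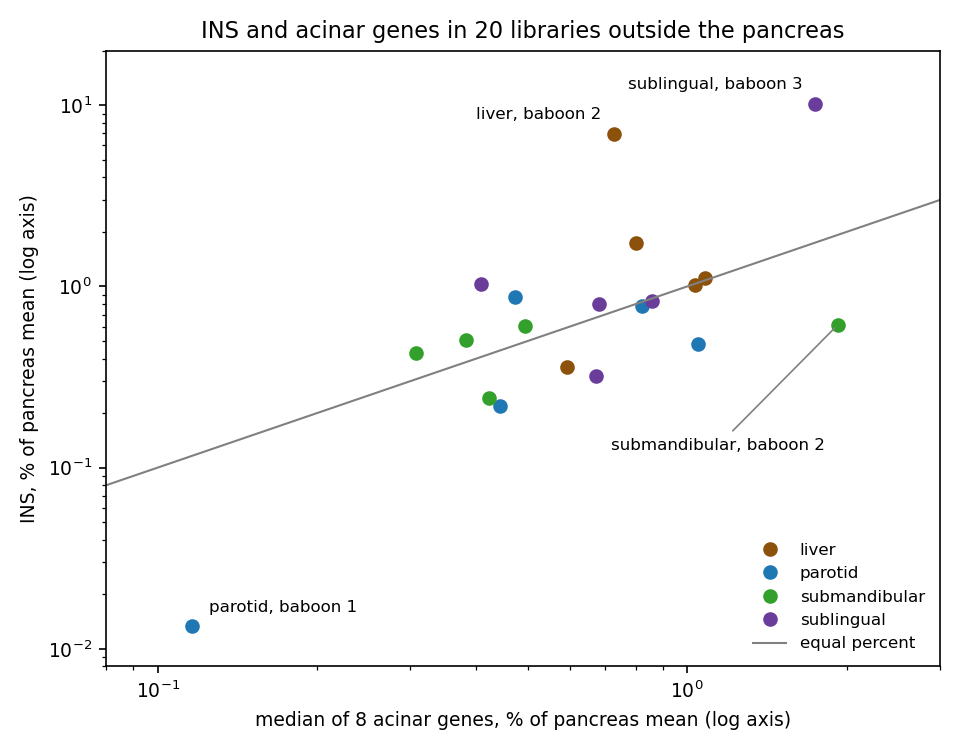
INS (vertical axis) against the median of 8 acinar genes (horizontal axis), both as a percentage of the mean over the 5 pancreas libraries, on log axes, in the 20 libraries outside the pancreas; colours mark tissues and the line marks equal percentages. Points lie on both sides of the line; the sublingual gland of baboon 3 (10.2%) and the liver of baboon 2 (6.95%) lie above it, and the submandibular gland of baboon 2 and the parotid of baboon 1 below it.

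Genes that process and store prohormones were mostly not called. Of 5 prohormone processing genes measured, 3 were tested, with median log2 fold changes of -0.77, -0.86 and -0.56 against parotid, submandibular and sublingual gland and 1.14 against liver, and 0 were called against any gland. Against liver, PCSK1N was called higher in pancreas (28.5 against 5.13 TPM, log2 fold change 1.75, SE 0.59, limma adjusted p = 0.0404), a call lost without baboon 1, 3, 4 or 5, without the liver of baboon 2, without the filter and without the animal term (adjusted p up to 0.184). CPE, the carboxypeptidase that trims insulin and glucagon, had mean levels of 10.1 TPM in pancreas, 64.8 TPM in parotid and 30.1 TPM in submandibular gland. In baboons 1 to 5 CPE stood at 6.29, 271, 20.5, 2.58 and 23.6 TPM in parotid and at 6.25, 87.7, 13.4, 5.34 and 37.7 TPM in submandibular gland, highest in both in the libraries of baboon 2, which are low in AQP5. PAM, which amidates peptides, had 23.3 TPM in parotid and a similar mean to CPE in pancreas. Neither CPE nor PAM was called in any comparison with pancreas, but both were called higher than in liver under TMM and median-of-ratios scaling and when only pancreas and liver were fitted. PAM was also called higher than in liver without the gland libraries low in AQP5. It was called against sublingual gland in that setting too, but the direction of that call is not given here. The convertases PCSK1 and PCSK2 did not reach a mean of 1 TPM in any tissue. Of 6 granule genes measured, PTPRN and SYT7 were tested and neither was called against any tissue. PTPRN was called higher in pancreas than in parotid and liver under both other scalings and without baboon 2, and than in submandibular gland without baboon 2. SYT7, a calcium sensor of exocytosis, was called lower than in each gland without the gland libraries low in AQP5, and lower than in parotid with a pseudocount of 0.1. PTPRN had 2.77, 0.236, 1.41, 0.322 and 2.29 TPM in pancreas.

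Of 9 beta cell genes tested, 5 were called higher in pancreas against parotid, submandibular gland and liver and 4 against sublingual gland. In that order, 2.4%, 2.81%, 2.86% and 2.49% of all genes tested were called higher in pancreas. The median log2 fold changes of the 9 were 1.71, 1.68, 1.71 and 1.66 in the same order. GLP1R, ABCC8 and UCN3 passed the filter on low values through the pancreas alone, so a difference was built into their selection. ERO1B, an oxidase that helps proinsulin fold and is also used by acinar cells, had 40.3 TPM in pancreas and log2 fold changes of 2.41 to 3.27 (limma adjusted p between 5.7e-06 and 0.000396). KCNJ11, the pore of the ATP-sensitive potassium channel, had 7.67 TPM in pancreas, and its limma adjusted p was 0.0799 against sublingual gland, where baboon 2 alone held 33.5 TPM. That comparison was called under both other scalings, with a pseudocount of 0.1, without baboon 2 and without the gland libraries low in AQP5. The other 3 KCNJ11 calls were each lost without baboon 1, 3 or 4 (adjusted p up to 0.175), and that against liver without baboon 5 as well. G6PC2, a glucose-6-phosphatase known from islets, was not higher in pancreas (22.5 TPM) than in liver (58.5 TPM) or sublingual gland (116 TPM), and was called in no comparison with pancreas. GLP1R, the receptor for the incretin GLP-1, had 6.75 TPM in pancreas and log2 fold changes of 2.50 to 2.73 (limma adjusted p at most 3.66e-06). SLC2A2, a glucose transporter shared by beta cells and hepatocytes, was lower in pancreas than in liver, with a log2 fold change of -5.02 (limma adjusted p = 3.11e-12).

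Several of the called beta cell genes did not share the low hormone values of baboons 2 and 4. ERO1B stood at 45.3, 50.4, 38.3, 37.1 and 30.5 TPM and GLP1R at 8.96, 7.79, 5.32, 8.74 and 2.92 TPM in the pancreases of baboons 1 to 5. Both were lowest in baboon 5, the animal with the most INS. ABCC8 and UCN3, named above for their order, stood at 4.74, 1.09, 4.70, 2.03 and 6.85 TPM and at 6.38, 0.171, 2.82, 1.29 and 3.89 TPM.

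The alpha and delta cell markers include genes that hepatocytes also make. Of 6 alpha cell genes, 3 were called higher in pancreas against each gland and 0 against liver, where 3 were lower. Among all genes tested, 2.4%, 2.81% and 2.49% were called higher in pancreas against parotid, submandibular and sublingual gland. Against liver 2.86% were called higher and 14.6% lower. The median log2 fold changes of the 6 were 1.34, 1.64 and 0.88 against parotid, submandibular and sublingual gland and -1.32 against liver. TTR had 295 TPM in pancreas, with log2 fold changes of 2.33, 2.55 and 1.69 against parotid, submandibular and sublingual gland (limma adjusted p at most 0.0202), but 9108 TPM in liver. Without baboon 1 its calls against parotid and sublingual gland were lost (adjusted p up to 0.174), and that against sublingual gland also without baboon 4 or 5. TM4SF4 had 31.8 TPM in pancreas, with log2 fold changes of 3.30 to 4.13 against the glands (limma adjusted p at most 4.17e-06), and CRYBA2 had 9.96 TPM in pancreas and limma adjusted p of 0.0131 to 0.0401 against the glands, all lost without baboon 1 or 4 (adjusted p up to 0.311), and without baboon 2 against parotid and submandibular gland. The CRYBA2 call against parotid was also lost without baboon 5, without the gland libraries low in AQP5, without the filter and when only the tissues compared were fitted, which ended that against sublingual gland too. Against liver CRYBA2 was called under both other scalings, without baboon 3 and without the gland libraries low in AQP5. GC, the vitamin D binding protein, had 13.2 TPM in pancreas and was lower than in liver (log2 fold change -6.22, limma adjusted p = 3.46e-11). IRX2, another alpha cell marker, was higher in submandibular and sublingual gland than in pancreas (limma adjusted p = 0.0269 and 0.0322); the first call was lost without baboon 1, 3 or 4, the second without baboon 1, 3 or 5 and under both other scalings (adjusted p up to 0.169). Of 4 delta cell genes tested, 0 were called higher in pancreas, with median log2 fold changes of 0.28, 0.62, 0.69 and -1.93 against parotid, submandibular gland, sublingual gland and liver. RBP4 and HHEX were lower than in liver, with log2 fold changes of -6.66 and -2.46 (limma adjusted p = 1.95e-08 and 0.0161), and LEPR and BCHE were not called. The HHEX call was lost without baboon 3 or 4 and with a pseudocount of 0.1 (limma adjusted p up to 0.0666). Of 15 alternatives, BCHE was called against sublingual gland in 8, parotid in 4, submandibular gland in 2 and liver in 1. LEPR was called in 2 against sublingual gland and in 2 against liver. The directions of these BCHE and LEPR calls are not given here.

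Of 11 islet transcription factors measured, 6 were tested, with median log2 fold changes of 1.02, 1.33, 0.82 and 0.86 against parotid, submandibular gland, sublingual gland and liver. PDX1 and NKX6-1 were called higher in pancreas against all 4 tissues. Both passed the filter on low values through the pancreas alone, as did GLP1R, ABCC8 and UCN3, so a difference was built into their selection: PDX1 reached 0.375 TPM and NKX6-1 0.311 TPM at most outside it. PDX1 stood at 9.11, 6.14, 4.58, 9.78 and 5.12 TPM in pancreas, with log2 fold changes of 2.77 to 2.91 (SE 0.22, limma adjusted p at most 4.92e-09). NKX6-1 stood at 3.78, 1.37, 2.06, 1.86 and 3.39 TPM, with log2 fold changes of 1.59 to 1.72 (SE 0.22, limma adjusted p at most 2.25e-05). PAX6, a factor of islet endocrine cells, had 3.35 TPM in pancreas and was called against no tissue.

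The receptors of these hormones were read in the same fit. GCGR, the glucagon receptor, was highest in liver at 105, 104, 121, 127 and 147 TPM, all above the pancreas at 4.19, 13.1, 4.08, 3.57 and 5.69 TPM (log2 fold change of pancreas against liver -4.23, SE 0.34, limma adjusted p = 6.62e-10). GCGR was also higher in pancreas than in parotid, submandibular and sublingual gland, with log2 fold changes of 2.05, 2.25 and 1.70 (limma adjusted p at most 0.00249). INSR, the insulin receptor, was low throughout (3.16 TPM in pancreas, 2.18 TPM in liver, 0.806 TPM in submandibular gland). It was called higher in pancreas against submandibular gland alone (log2 fold change 1.16, limma adjusted p = 0.0192). That call was lost without baboon 1, 2, 3 or 4 and when only those tissues were fitted (adjusted p up to 0.176). Under both other scalings and without baboon 5, INSR was called against parotid and sublingual gland too. Without the gland libraries low in AQP5 it was called against parotid as well. SSTR2, a somatostatin receptor, was lower in pancreas (0.175 TPM) than in liver (2.52 TPM), with a log2 fold change of -1.42 (limma adjusted p = 0.00103).

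RAMP1, a subunit of calcitonin-family receptors including those for amylin, the IAPP peptide, stood at 89.1, 125, 138, 142 and 98.2 TPM in pancreas. It was called higher there against all 4 tissues (log2 fold changes 2.15 to 4.39, limma adjusted p at most 0.0219), although the sublingual gland of baboon 2 reached 151 TPM. The calls against sublingual gland and liver were lost without baboon 1, 3 or 4 (adjusted p up to 0.135), the first also without the sublingual library of baboon 3 and the second without the liver of baboon 2. RAMP2 and RAMP3, the related subunits, had 15.5 and 17.1 TPM in pancreas and were not called, nor was IDE, an insulin-degrading protease, with 0.864 TPM. Under both other scalings RAMP3 was called against sublingual gland and liver, and against liver also when only those tissues were fitted. Against sublingual gland, RAMP2 was called when only those tissues were fitted. IDE was called there without baboon 2 and without the gland libraries low in AQP5. The directions of these RAMP2, RAMP3 and IDE calls are not given here. In all, 2 of 7 tested receptor genes were called higher in pancreas against parotid, 3 against submandibular gland, 2 against sublingual gland and 1 against liver, where 2 were lower. Among all genes tested, 2.4%, 2.81%, 2.49% and 2.86% were called higher in pancreas in that order, and 14.6% lower than in liver. The median log2 fold changes of the 7 were 0.12, 0.51, 0.73 and -0.38.

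Among 5 tested peptide hormones made mainly elsewhere in the gut and nerves, SCT was called in every comparison. SCT, secretin, which drives bicarbonate secretion, had 9.31 to 38.7 TPM in pancreas (median 20.7), with log2 fold changes of 2.63 to 3.87 (SE 0.47, limma adjusted p at most 0.000171). It exceeded SST and PPY on average and was not lowest in baboons 2 and 4. NPY, neuropeptide Y, had 6.21, 2.35, 14.7, 0 and 1.43 TPM in pancreas and was called higher there against parotid and liver (limma adjusted p = 0.041 and 0.0417), both lost without baboon 1, 2, 3 or 5 and without the filter (adjusted p up to 0.217). The NPY call against parotid was also lost without the gland libraries low in AQP5, and that against liver without the animal term, with a pseudocount of 0.1 and without the liver of baboon 2. GHRL, the ghrelin precursor, had 0.696 TPM and was not called.

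Over the 25 libraries, the genes whose log2(TPM + 1) was most like that of each hormone differed between INS and the rest. For INS they included CTRL, CLPS and ZG16, which are products of acinar cells, and SLC4A4, a bicarbonate transporter, with Pearson r of 0.903 to 0.917. For GCG they were CELF3, SMIM24, KCNK16, TAGLN3 and ISL1, with r of 0.898 to 0.927. For SST they were CELF3, SMIM24, C1QL1, KCNK16 and TAGLN3, with r of 0.832 to 0.862. PPY had lower values, 0.747 to 0.809, for C2H3orf14, BDKRB2, TCEAL5, AP3B2 and TLCD5. The 25 points share animals and tissues, and 5 of them are pancreas, so these are descriptions. The genes named for GCG and SST averaged at most 0.327 TPM in any other tissue, and SLC4A4 at most 0.906 TPM. They passed the filter on low values through the pancreas alone, so likeness to a hormone high in pancreas was partly built in. In the pancreas libraries alone, CELF3 stood at 3.30, 0.56, 1.08, 0.275 and 2.17 TPM. KCNK16, a potassium channel of beta cells, stood at 3.27, 0.325, 0.842, 0.755 and 4.48 TPM. SMIM24 stood at 7.34, 0.416, 0.491, 1.18 and 4.12 TPM, with baboon 4 above baboon 3. Low values of CELF3 and KCNK16 in baboons 2 and 4 were largely built in. The genes were picked for likeness over libraries that include these 5.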

How the data were processed

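The authors deposited TPM per gene, named as kallisto abundances by the table; the submitters' processing notes also name kallisto, while its version, index, genome build and annotation are not given in the sources used here, so no coordinates or sequences are printed. The 25 columns were assigned to tissue and animal by the labels and summed to 999999.5 to 1000000.6 TPM. TPM keeps no depth, so precision rests on the spread over 5 animals. All 7 members and all 21287 identifiers matched the RefSeq gene table of Panubis1.0, used for names only.

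limma 3.58.1 (R 4.3.3; lmFit and eBayes with trend) was fitted to log2(TPM + 1) of the 14991 genes averaging 1 TPM or more in some tissue, with tissue and animal as terms and all 25 libraries. Benjamini-Hochberg adjustment ran over all genes tested, and calls needed adjusted p under 0.05 and a log2 fold change of 1 or more in size. The pairing comes from the animal numbers of the labels: deviations of libraries of the same animal had a mean correlation of 0.161, those of different animals -0.0354. The fit was tested on simulated data. Member pairs within pancreas were compared by exact sign-flip tests. Because the values were TPM, a plan for counts was not used.

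Named were the 7 members, hormone receptor genes that passed this filter, up to 4 genes of each other list with the highest mean TPM in pancreas (in any tissue for markers of other organs), and the 5 genes most correlated with INS, GCG, SST and PPY. Others (IRX2, UCN3, ABCC8, SLC2A2, PCSK1) were named after their values were seen. Members and lists were chosen with earlier results of these data known. Of 115 list symbols 5 were not analysed here, and some genes that the rule names are not reported here. Alternatives were the scaling, filter, pseudocount, block, samples fitted and animals left out, and, added after seeing the data, leaving out gland libraries low in AQP5 and the 2 libraries high in INS.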

Additional observations from a re-analysis of the deposited data

Results flagged for a closer look

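One value stood apart from its group. PPY in the submandibular gland of baboon 2 was 15.1 TPM, beside 0.111 to 0.759 TPM in the other 4 animals; the gap to the next library was 0.828 of the group's range on the log2(TPM + 1) scale, above the 95% critical value of 0.71 for 5 samples. It was 1 of 20 groups of member values tested, and chance flags about 1 in 20. The same library held the highest acinar marker sum outside the pancreas (3736 TPM) and 5.40 TPM of AQP5, with a salivary marker sum of 1907 TPM against 41183 to 60906 TPM in the other submandibular libraries. Its nerve marker sum was 79.9 TPM and its adipose marker sum 119 TPM, and STMN2, a neuronal protein, stood at 24.5 TPM. INS in it was 30.2 TPM and GCG 1.49 TPM. The part of these in the PPY value was not tested. The second highest PPY outside the pancreas, 3.77 TPM, was in the parotid of the same animal, where nerve markers summed to 170 TPM and adipose markers to 1116 TPM. The highest nerve marker sum, 251 TPM, was in the sublingual gland of baboon 1, with PPY at 2.62 TPM and adipose markers at 8.60 TPM. In the submandibular gland of baboon 5 adipose markers summed to 571 TPM and PPY was 0.756 TPM. The part of these markers in the PPY values was not tested either.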

How the results depend on the processing

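Of 400 recomputed fold changes of members in pancreas comparisons, 356 kept direction and side of the threshold, 16 fell below it, 26 passed it and 2 reversed. The reversals were PPY against submandibular gland without baboon 1 (-0.41) and without baboon 5 (-0.34), where all animals gave 0.10 and the range was -0.41 to 1.13; the cause was not tested. The 3 members called became 5 against liver with TMM and 5 with median-of-ratios scaling, and 5 against parotid with a pseudocount of 0.1. Leaving out 1 animal gave 2 to 7 against liver, 2 to 6 against parotid and against sublingual gland, and 2 to 3 against submandibular gland. Without baboon 1, and likewise without baboon 5, only 6 members passed the filter on low values and were tested. Without the replicate block (animal term) 3 members were called in each comparison, and no member call changed, while, of the other named islet genes, IRX2 against submandibular and sublingual gland and PCSK1N, NPY and RAMP1 against liver were no longer called. Of 111 calls of other listed genes in pancreas comparisons, 86 held under every alternative, 25 were lost under at least 1 and 0 reversed. Among pairs without pancreas, fitting only the tissues compared called 1 (INS, parotid against liver) in place of 0.

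TMM moved the median log2 fold change of all genes by 0.41, 0.15, 0.54 and 0.44 against parotid, submandibular gland, sublingual gland and liver; the share of called genes higher in pancreas went from 62.9% to 69.7%, 68.9% to 66.8%, 26.4% to 63.2% and 16.3% to 41.1%. Over all genes, calls against parotid (572) became 1246 with TMM, 1230 with median-of-ratios, 1018 without the gland libraries low in AQP5 and 315 without baboon 3. Those against submandibular gland (611) became 1287, 1284 and 1198, and 326 to 347 without baboon 1, 3 or 4. Those against sublingual gland (1419) became 4600 without the low-AQP5 libraries and 393 to 3011 without 1 animal. Those against liver (2623) became 4313 with only those tissues fitted, 4030 without the low-AQP5 libraries and 1722 without baboon 3. Depth is unknown, so no counting error can be given for values near 0.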
